A study of Mus musculus with 4 samples.

Results

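The 10 keratin genes Krt7, Krt8, Krt18, Krt19, Krt20, Krt5, Krt14, Krt15, Krt79 and Krt80 were followed in mouse lung. They were taken by gene symbol from the 23282 rows of the expression table, and each symbol matched a single row. The choice was made with the values of these libraries known, so the levels and differences below describe the genes and carry no test. The mice were CDF1 males, 10 per group, and the lung RNA of each group is represented by 1 library. Healthy mice without exercise formed the normal control, E(-)T(-), and healthy mice run on a motorized treadmill at high intensity formed the normal exercise group, E(+)T(-). The cancer control, E(-)T(+), had received CT26 cells, a mouse colorectal carcinoma line, through the tail vein and did not exercise. The cancer exercise group, E(+)T(+), had received the same cells and the same treadmill program. The labels give postnatal day 28 for all mice, which may be the age at purchase. For muscle the study describes a representative animal of each group, and lung is said to have been examined in a like way, but the number of mice behind a lung library is not stated. The tumor cells were injected and did not arise in the lung, and the share of each lung that was tumor is not given in the sources used here.

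Keratins are the intermediate filament proteins of epithelial cells. A filament is built from pairs of 1 acidic type I chain and 1 basic type II chain, and the pairs differ between epithelia: KRT8 with KRT18 in single-layered epithelia, KRT5 with KRT14 in the basal cells of stratified epithelia and of the airway. KRT7 and KRT19 accompany KRT8 and KRT18 in ducts and airways, and KRT20 marks intestinal epithelium and the surface cells of the bladder, which is why pathologists read KRT7 and KRT20 together when they ask where a metastasis came from. In healthy lung, simple keratins are made by airway and alveolar epithelium, while fibroblasts, endothelium and blood cells use vimentin.

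Reads assigned to genes came to 13017456 in the normal control, 12780425 in normal exercise, 9354500 in the cancer control and 13367998 in cancer exercise. At these depths 3 reads, the floor set here for a count of 0, equal 0.224 to 0.321 CPM, a read count scaled to a common library total. The exact Poisson 95% interval of a count of 0 reaches 3.689 reads, above that floor. Libraries were compared by effective size, in which the normal control counted 1.18, normal exercise 1.09, the cancer control 0.913 and cancer exercise 0.855, so equal reads in the last 2 stand for more. Hemoglobin genes held 1.43% of the reads in the cancer control and 31.4% in cancer exercise, against 14.3% and 14.2% in the libraries without tumor. A library stands for its group without a replicate, so every interval given here is a 95% interval of counting error alone, exact Poisson for a level and exact Clopper-Pearson for a ratio or a share. Reads come from the 3' ends of transcripts, and levels are compared between libraries and not between genes. In whole lung, fewer cells of a type and less RNA per cell cannot be told apart.

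The simple-epithelial pair, Krt8 and Krt18, was lowest in the cancer control and highest in the cancer exercise library. The genes lie beside each other on chromosome 15 (GRCm38, the mm10 build; GENCODE M21), Krt8 at chr15:101996698-102004482 on the minus strand and Krt18 at chr15:102028180-102032027 on the plus strand. The gap between them is 23697 bases and holds 0 other protein-coding genes. Their start regions, from 250 bases before to 50 after the RefSeq start (GRCm38.p6), are shown because the genes moved together, with letters of a searched motif in capitals. They are chr15:102004293-102004592 on the minus strand for Krt8 and chr15:102027966-102028265 on the plus strand for Krt18.
Krt8: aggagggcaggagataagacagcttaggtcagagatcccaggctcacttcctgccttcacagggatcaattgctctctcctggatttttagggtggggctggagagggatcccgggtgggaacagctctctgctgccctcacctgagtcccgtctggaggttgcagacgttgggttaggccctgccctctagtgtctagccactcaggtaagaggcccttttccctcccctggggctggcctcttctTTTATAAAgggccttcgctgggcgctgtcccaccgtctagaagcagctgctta
Krt18: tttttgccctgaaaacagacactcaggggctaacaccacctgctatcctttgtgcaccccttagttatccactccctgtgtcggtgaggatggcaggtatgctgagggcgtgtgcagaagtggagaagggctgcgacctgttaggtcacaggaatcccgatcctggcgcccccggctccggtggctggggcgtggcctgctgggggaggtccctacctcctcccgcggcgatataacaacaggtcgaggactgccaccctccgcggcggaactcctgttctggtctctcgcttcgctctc
Motifs were searched on both strands as TATAAA (letters of the core promoter box), GGGCGG (letters of Sp1), CCAAT (letters of NF-Y), TGANTCA (letters of AP-1) and TTTATG (letters of Cdx). The Krt8 window held 1 TATAAA on each strand, which overlap and begin 1 and 3 bases before the start, and the Krt18 window held none of the motifs. TATAAA was found in 13.6% of 32851 windows of this length, so the 2 neighbors with like patterns differ in a motif that most windows lack.

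Krt8 had 990 reads in the normal control, 1062 in normal exercise, 349 in the cancer control and 1907 in cancer exercise. Krt18 had 908 reads in the normal control, 929 in normal exercise, 377 in the cancer control and 1560 in cancer exercise. Both genes stood in the same order of libraries, and the step between the libraries without tumor was the smallest of each. On the log2 scale Krt8 was lower in the cancer control than in the normal control by -1.13 (interval -1.32 to -0.96) and Krt18 by -0.90 (-1.08 to -0.73). Between the libraries with tumor, Krt8 was 5.83-fold higher with exercise (interval 5.20 to 6.55) and Krt18 4.42-fold (3.94 to 4.95). The cancer exercise library also stood above the normal exercise library, by 1.19 for Krt8 (1.08 to 1.30) and 1.09 for Krt18 (0.98 to 1.21). Those last 2 differences depend on the scaling, since with library totals in place of effective sizes they were 0.78 and 0.68, below 2-fold, while the median of all genes moved to -0.41. The proportion within the pair moved little through these changes, although the intervals of the libraries with tumor do not overlap. Krt8 reads as a share of the pair's reads were 52.2% in the normal control (49.9 to 54.4), 53.3% in normal exercise (51.1 to 55.6), 48.1% in the cancer control (44.4 to 51.8) and 55.0% in cancer exercise (53.3 to 56.7).

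Krt7 and Krt19, the type II and type I keratins of ducts and conducting airways, also had their lowest level in the cancer control. Krt7 (chr15:101411043-101430313, plus strand) had 3518 reads in the normal control, 3962 in normal exercise, 737 in the cancer control and 3221 in cancer exercise. Krt19 (chr11:100140810-100148665, minus strand) had 1730 reads in the normal control, 1399 in normal exercise, 482 in the cancer control and 2566 in cancer exercise. Krt7 was level at its top, with cancer exercise and normal exercise not separable by counting error, at a log2 difference of 0.05 (-0.02 to 0.12). Under library totals this difference turned to -0.36. Krt19 instead peaked in cancer exercise, 1.22 above normal exercise on the log2 scale (1.13 to 1.32) and 1.03 above the normal control (0.94 to 1.12). With library totals these were 0.81 and 0.53.

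In the cancer control Krt7 was 3.70-fold lower than in the normal control and Krt19 2.78-fold, and in the cancer exercise library they were 4.66-fold and 5.68-fold above the cancer control. Their proportion shifted more than that of Krt8 and Krt18. Krt7 reads were 67.0% of the Krt7 and Krt19 reads in the normal control (65.7 to 68.3), 73.9% in normal exercise (72.7 to 75.1), 60.5% in the cancer control (57.7 to 63.2) and 55.7% in cancer exercise (54.4 to 56.9). The highest and the lowest share were those of the 2 exercised groups. The start region of Krt7 (chr15:101412153-101412452, plus strand) is shown for comparison with that of Krt20, because the 2 genes differed in opposite directions in the cancer control.
Krt7: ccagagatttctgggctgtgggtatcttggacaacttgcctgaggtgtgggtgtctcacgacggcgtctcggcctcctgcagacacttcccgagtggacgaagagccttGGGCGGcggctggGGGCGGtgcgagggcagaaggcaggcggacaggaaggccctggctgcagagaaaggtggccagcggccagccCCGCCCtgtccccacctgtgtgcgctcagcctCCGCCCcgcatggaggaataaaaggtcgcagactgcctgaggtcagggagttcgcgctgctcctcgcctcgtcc
It held 4 GGGCGG matches, 2 on each strand, 141, 128, 56 and 24 bases before the start. GGGCGG occurred in 35.7% of all windows.

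**Figure D1:**
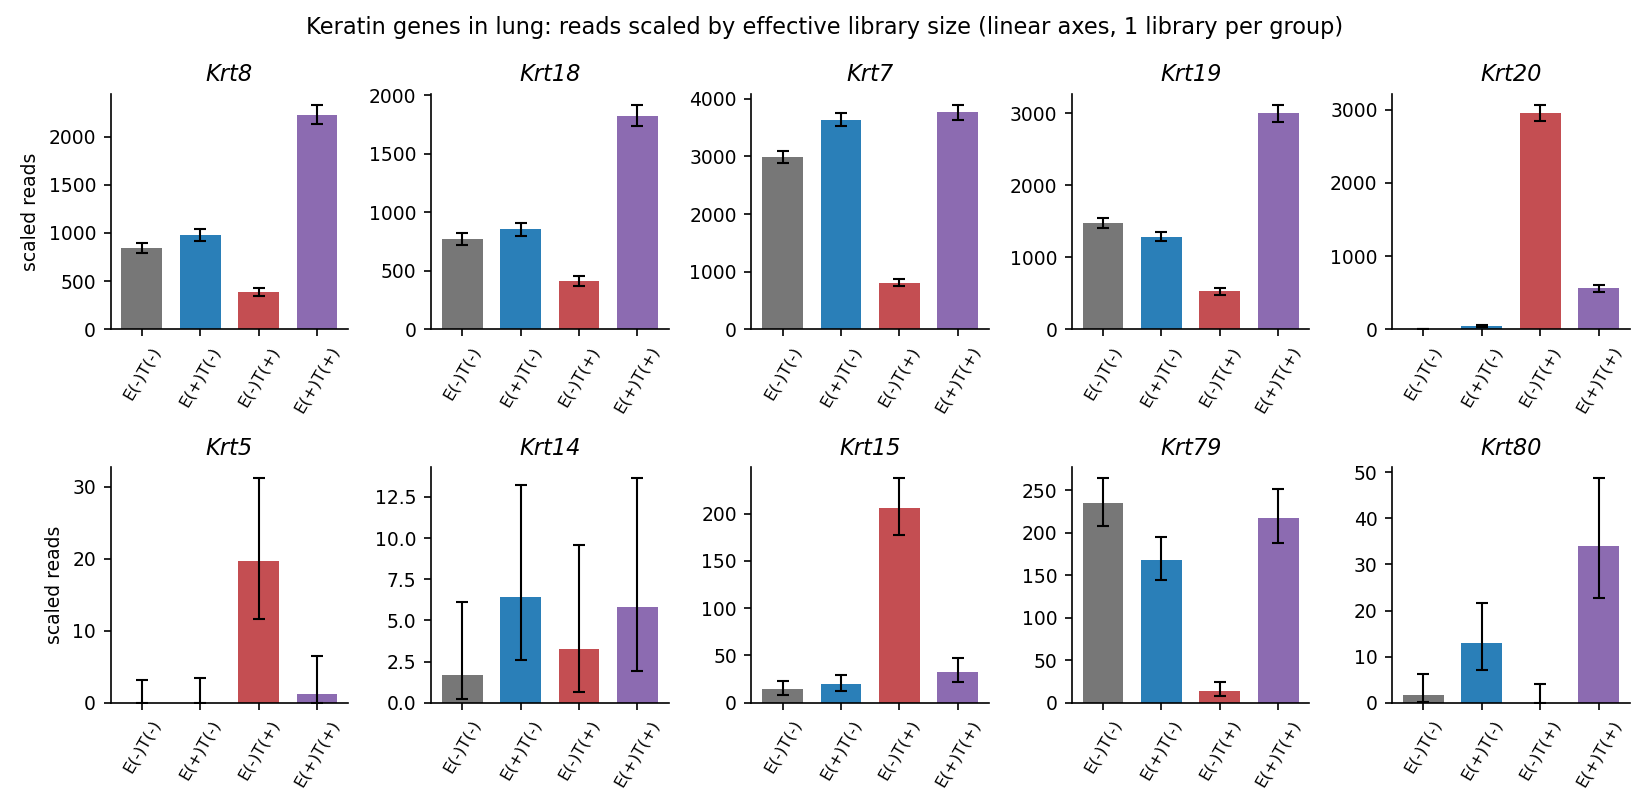
Level of each keratin in the 4 lung libraries, as reads divided by relative effective library size, on linear axes that start at 0 and differ between genes. Bars are single libraries and error bars the exact Poisson 95% interval of the reads. Krt8, Krt18, Krt7 and Krt19 were lowest in E(-)T(+), and Krt20, Krt5 and Krt15 were highest there.

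Krt20, a type I keratin at chr11:99428403-99438150 on the minus strand, was highest in the cancer control, where Krt7, Krt8, Krt18 and Krt19 were lowest. Those genes are called the simple keratins below, a name that here leaves out Krt20. Krt20 had 0 reads in the normal control, 46 in normal exercise, 2696 in the cancer control and 476 in cancer exercise. The 4 levels were 0, 3.60, 288.2 and 35.6 CPM in that order of libraries, and no 2 of the counting intervals overlap. The cancer control stood at 1159-fold the level of 3 reads, the floor set for the empty normal control, and the exact interval of the read ratio begins at 941.8-fold. The cancer exercise library was 5.31-fold below the cancer control (log2 difference -2.41, interval -2.55 to -2.27). Exercise thus went with a lower Krt20 level and higher Krt7, Krt8, Krt18 and Krt19 levels in the libraries with tumor. Even so, Krt20 in cancer exercise was 13.2-fold above normal exercise, with an interval of 9.72 to 18.2. The start region of Krt20 (chr11:99438104-99438403, minus strand) holds 1 TATAAA, 29 bases before the start, and no match to the Cdx letters TTTATG, which occur in 11.9% of windows.
Krt20: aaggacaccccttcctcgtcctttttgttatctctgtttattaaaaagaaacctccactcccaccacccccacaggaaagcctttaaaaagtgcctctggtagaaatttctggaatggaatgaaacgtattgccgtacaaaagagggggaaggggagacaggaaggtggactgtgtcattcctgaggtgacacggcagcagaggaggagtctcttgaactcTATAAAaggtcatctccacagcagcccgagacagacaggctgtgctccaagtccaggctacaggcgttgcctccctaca
The window differs from that of Krt7 in both motifs, TATAAA being present here and absent there and GGGCGG the reverse. A match is a description of the sequence and not of a bound site.

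The 46 Krt20 reads in the normal exercise library, which by its label held no tumor, put it at 16.6-fold that floor of the normal control, with an interval of the ratio that begins at 12.95-fold. They amount to 1.43% of the cancer control level. Krt20 was 1 of 9 genes with 0 reads in the normal control and 500 or more normalized counts in the cancer control. In normal exercise the other 8, which include Crabp1, Osr2 and the granzymes Gzmd, Gzmf and Gzmg, had 0.642% to 2.18% of their cancer control level, with a median of 1.60%. With that median share of the cancer control subtracted from normal exercise, the Krt20 difference between the libraries without tumor went from 5.43 to 0.00 on the log2 scale, since 1.60% exceeds the 1.43% of Krt20 itself and a remainder below 0 was set to 0. The same subtraction took the difference between the exercised libraries from 3.69 to 9.12, a value that rests on that 0 and on the added count of 1. The source of the reads of these 9 genes in normal exercise was not tested. In cancer exercise the levels of the 9 genes were spread further, Krt20 at 18.8% of the cancer control and the others from 3.89% to 28.5%.

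Other genes of intestinal epithelium were mixed. Of 23 listed genes 9 passed the filter (mean normalized count of 4 or more), and in the cancer control 2 of them were 2-fold or more higher than in the normal control and 5 lower, with a median log2 difference of -1.04, where 20.6% of all genes were higher and 25.7% lower. Cancer exercise over the cancer control gave 6 of the 9 higher and 2 lower (median 2.22), where Krt20 was lower. Among all genes 24.3% were higher and 17.7% lower there. Cancer exercise over normal exercise gave 6 higher and 1 lower (median 1.30), the direction of Krt20, where 14.9% of all genes were higher. Cdx2, Hnf4a and Lgals4, which define intestinal cells, had 0 reads in each of the 4 libraries, and Vil1 had 4 to 11. Cdh17, a cadherin of intestine, had 0 reads in the normal control, 2 in normal exercise, 17 in the cancer control and 5 in cancer exercise, and was 1 of the listed genes higher in the cancer control. The genes of the list with the highest levels were Tspan8 (log2 difference -3.77 in the cancer control), Ceacam1 (-1.30) and Car1, which had 5 or 6 reads in each library but cancer exercise, where it had 136. Hemoglobin genes also held their largest share of reads, 31.4%, in cancer exercise. The source of the Car1 reads was not tested.

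The basal keratins were near or below the limit of detection without tumor. Krt5 (chr15:101707070-101712898, minus strand) had 0 reads in the normal control, 0 in normal exercise, 18 in the cancer control and 1 in cancer exercise. The cancer control was at 7.74-fold the floor of 3 reads in the normal control, with an interval of the ratio that begins at 5.67-fold, and the ratio of 1 to 18 reads put cancer exercise below it, with an interval of the log2 ratio from -9.46 to -1.41. Krt14 (chr11:100203162-100207548, minus strand), the partner of Krt5, had 2 reads in the normal control, 7 in normal exercise, 3 in the cancer control and 5 in cancer exercise, and no 2 neighbors in that order of levels were separable by counting error. Krt5 made up 18 of the 21 Krt5 and Krt14 reads in the cancer control (85.7%, interval 63.7 to 97.0), against 0 of 2 in the normal control, 0 of 7 in normal exercise and 1 of 6 in cancer exercise. The intervals of that share reach 84.2% in the normal control and 64.1% in cancer exercise and so overlap that of the cancer control, while the one of normal exercise ends at 41.0%. At this depth the counts do not settle whether Krt14 moved with Krt5. The last 500 bases of Krt14 share 43 of 451 50-base words with Krt16 or Krt17, which had 0 and at most 5 reads, so its few reads may be split.

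Krt15 (chr11:100131758-100135928, minus strand), a type I keratin of basal cells whose gene ends 4881 bases from Krt19, was clearer. It had 17 reads in the normal control, 21 in normal exercise, 188 in the cancer control and 28 in cancer exercise. The cancer control was 14.3-fold above the normal control (8.67 to 25.0) and the cancer exercise library 6.29-fold below the cancer control (log2 difference -2.61, interval -3.28 to -2.08). Among the other 3 libraries no 2 neighbors in level separated by counting error. Cancer exercise was 1.14 above the normal control on the log2 scale, and 0.65 with library totals. Krt15 and Krt19, neighbors of the same type on the same strand, thus differed in opposite directions between the cancer control and every other library.

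Airway basal cells are the known source of Krt5, Krt14 and Krt15 in lung. Trp63, the transcription factor that defines them, had 7 reads in the normal control, 0 in normal exercise, 1 in the cancer control and 0 in cancer exercise, and Aqp3 had 1, 0, 5 and 1. In the cancer control over the normal control 20.6% of all genes were 2-fold or more higher and 25.7% lower. Of the 11 genes of the basal list that passed the filter 2 were 2-fold or more higher and 5 lower, with a median of -0.64. Those with the highest levels were Hspb1 (-1.60), Bcam (-2.90) and Igfbp2 (-4.72). The 2 that were higher, named after their values were seen, were Snai2 (1.51) and Dlk2 (1.58), and both were lower in cancer exercise than in the cancer control (-1.83 and -3.14), as were Krt5 and Krt15. Sox2, also named after its values were seen, fell just short of the 2-fold limit in the cancer control (interval 0.77 to 1.23). It had 262 reads in the normal control, 162 in normal exercise, 407 in the cancer control and 87 in cancer exercise. Between the libraries with tumor Sox2 was lower with exercise (-2.12). The higher Krt15 and Krt5 levels in the cancer control were therefore shared by 2 genes at the 2-fold limit and nearly by Sox2. Most of the list did not share them, with 8 of the 11 genes lower by any amount. The name airway basal keratin is given here from background and not from these libraries. Genes of squamous differentiation were mixed in the same comparison, with 12 of 22 measured, 4 higher, 3 lower and a median of 0.08. The lower share is near the 25.7% of all genes, and the higher one compares with 20.6%. Lgals7, a galectin of stratified epithelia, had the largest difference of the 12 (6.54). It had 9 reads in the normal control, 30 in normal exercise, 724 in the cancer control and 141 in cancer exercise. The others higher were Sprr1a (3.49, on 17 against 1 reads), Cstb (2.40) and Klk10 (1.62).

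Krt79 (chr15:101929332-101940324, minus strand), a type II keratin known from hair canals and sebaceous ducts, had 276 reads in the normal control, 183 in normal exercise, 13 in the cancer control and 186 in cancer exercise. The cancer control was far below the other 3, 16.5-fold under the normal control (log2 difference -3.94, interval -4.97 to -3.24). The cancer exercise library was 15.3-fold above the cancer control (8.71 to 29.2) and did not separate from the normal control, at 0.11 below it (-0.16 to 0.39 for the log2 ratio of normal control to cancer exercise). That depends on the scaling, since with library totals it was at -0.60, a difference beyond counting error. None of the 24 shared epithelial genes, 13 club cell genes or 11 desmosome genes described below had a log2 difference in the cancer control as low as that of Krt79. Among 17 ciliated genes 1 did, 1 each among 14 alveolar type 1 and 14 alveolar type 2 genes, and 3 among 20 alveolar macrophage genes. Krt79 was thus the member with the lowest level in the cancer control relative to the normal control.

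Krt80 (chr15:101347444-101370162, minus strand), a type II keratin of differentiating epithelia, had 2 reads in the normal control, 14 in normal exercise, 0 in the cancer control and 29 in cancer exercise. The exercised libraries held nearly all the reads. Without tumor the ratio of exercised to resting was 7.57 (1.74 to 68.6), and with tumor the exercised library was at 10.3-fold the floor of 3 reads in the empty one, with an interval of the ratio that begins at 7.87-fold. The last exon of Krt80 overlaps Gm35853 on the opposite strand, and the use of strand in counting is not given in the sources used here.

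Side by side, the members called in each comparison were as follows, where called means a 2-fold or larger difference of the log2 values among genes whose normalized count averaged 4 or more. All 10 members passed that count limit, Krt5 and Krt20 among them through the libraries where they were high. In the exercise effect without tumor, normal exercise over the normal control, Krt20, Krt80 and Krt14 were higher and 0 members lower, against 9.98% of all 15164 genes called in either direction and 5.28% called higher. Krt14 passed at 7 against 2 reads, with an interval of the log2 ratio of -0.47 to 5.22. The 4 simple keratins differed by 0.28 or less in size there, with Krt19 at -0.19 (-0.30 to -0.09) and Krt7 at 0.28 (0.22 to 0.35). In the tumor effect without exercise, the cancer control over the normal control, Krt20, Krt5 and Krt15 were higher and Krt7, Krt8, Krt19 and Krt79 lower, with Krt18 short of the limit at -0.90. Krt80 also passed as lower, on 0 against 2 reads, and is given no fold. In that comparison 46.2% of all genes were called, 20.6% higher and 25.7% lower.

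In the exercise effect with tumor, cancer exercise over the cancer control, 6 members were higher (Krt7, Krt8, Krt18, Krt19, Krt79 and Krt80) and 3 lower (Krt20, Krt5 and Krt15), where 42.0% of all genes were called, 24.3% higher and 17.7% lower. Library totals moved the median of all genes to -0.59 in this comparison and left these 9 calls in place, with log2 differences of 1.93 in place of 2.54 for Krt8, 1.53 in place of 2.14 for Krt18, 1.61 in place of 2.22 for Krt7 and 1.90 in place of 2.50 for Krt19. Krt20 was then at -3.01 in place of -2.41, Krt15 at -3.21 in place of -2.61 and Krt79 at 3.25 in place of 3.83. In the tumor effect with exercise, cancer exercise over normal exercise, Krt20, Krt8, Krt18, Krt19 and Krt80 were higher and none lower, where 27.8% of all genes were called in either direction and 14.9% higher. Krt5 also passed there at 1 against 0 reads and is given no fold. Under library totals 1 member, Krt20, stayed past the limit in this last comparison. The median log2 difference of the members was 0.25, -1.02, 2.18 and 1.13 in the 4 comparisons, and that of all genes 0.00, -0.03, 0.01 and -0.00. The members were chosen on these same contrasts and each library enters 2 comparisons, so nothing is read from their share of calls or from the reversal between comparisons.

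**Figure D2:**
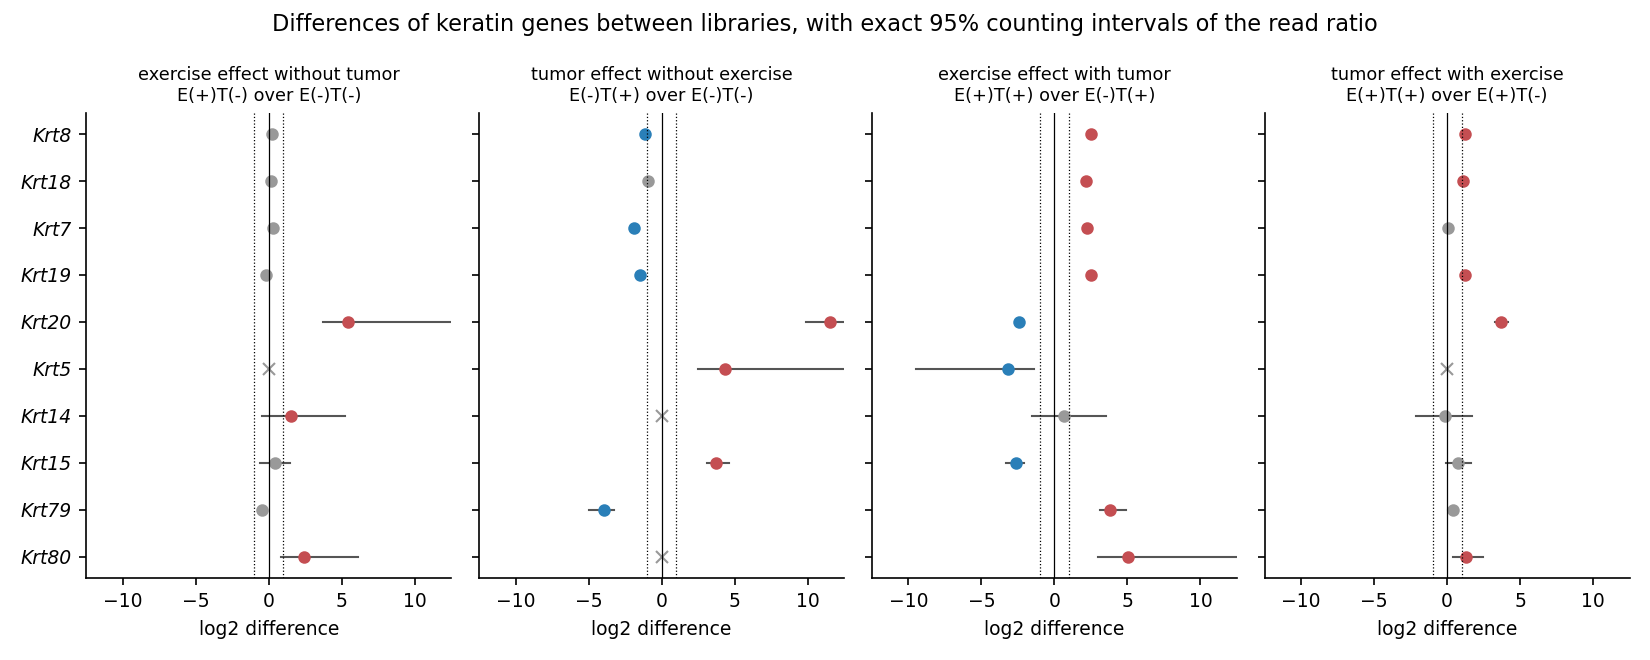
Log2 difference of each keratin in the 4 comparisons, with the exact 95% counting interval of the read ratio as a line, open to the right where the lower library had 0 reads. Red and blue points are 2-fold or more higher or lower, gray points are inside the dotted 2-fold lines, and crosses mark pairs with at most 3 reads in both libraries, for which no fold is given. Krt20 lay at 11.53 in the tumor effect without exercise and at -2.41 in the exercise effect with tumor.

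The make-up of the keratin reads turned over in the cancer control. Reads of the 10 genes summed to 7443 in the normal control, 7623 in normal exercise, 4863 in the cancer control and 9979 in cancer exercise, which is 519.9 CPM at the lowest, in the cancer control, and 746.5 CPM at the highest, in cancer exercise. Krt7 was the largest contributor in 3 libraries, with 47.3% in the normal control (46.1 to 48.4), 52.0% in normal exercise (50.8 to 53.1) and 32.3% in cancer exercise (31.4 to 33.2). In the cancer control it gave 15.2% (14.2 to 16.2), and Krt20 gave 55.4% (54.0 to 56.8). Krt20 made up 4.77% of the keratin reads in cancer exercise (4.36 to 5.21), where Krt8 and Krt19 had their highest shares, 19.1% and 25.7%. Krt15 gave 3.87% in the cancer control (3.34 to 4.45) and 0.228% to 0.281% elsewhere. Counting Krt7 and Krt20 alone, the pair that pathologists compare, Krt7 held 98.9% of their reads in normal exercise (98.5 to 99.2), 21.5% in the cancer control (20.1 to 22.9) and 87.1% in cancer exercise (86.0 to 88.2). A share of reads compares libraries and not the amounts of the proteins.

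**Figure D3:**
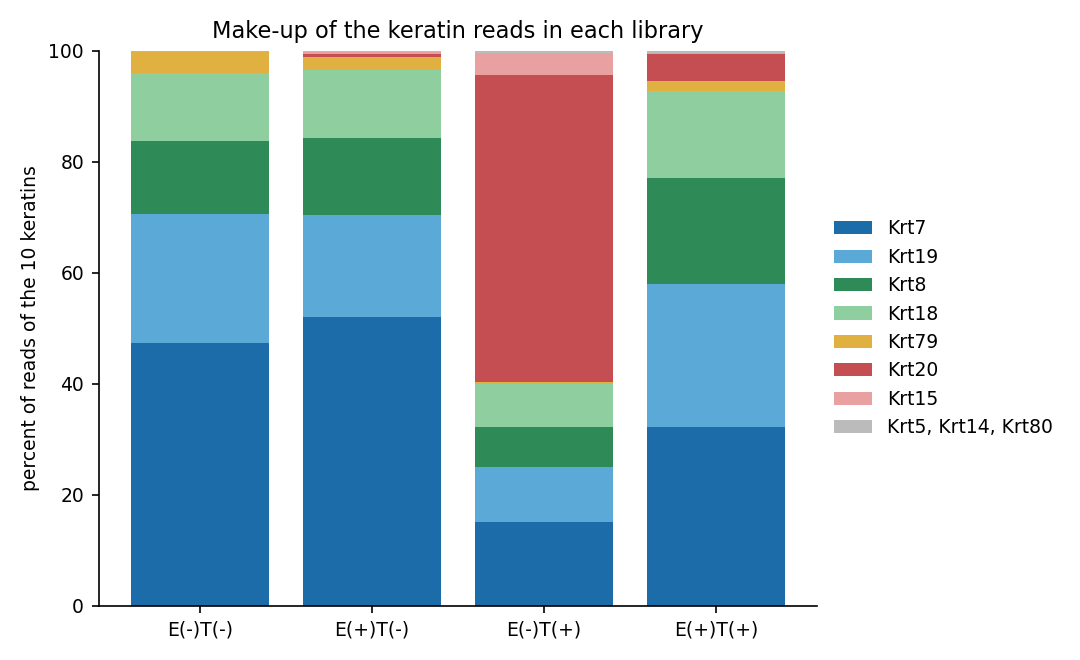
Share of the reads of the 10 keratins held by each gene, in percent, for the 4 libraries. Krt20 held 55.4% in E(-)T(+) and 4.77% in E(+)T(+), and Krt7 held between 15.2% and 52.0%.

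The simple keratins were read against the epithelium that carries them. Among all genes 25.7% were lower and 20.6% higher in the cancer control than in the normal control. Between the libraries with tumor 24.3% were higher with exercise and 17.7% lower. A list of 24 genes shared by epithelia (junction proteins, and the factors and splicing regulators of epithelial identity) had 19 genes lower and 1 higher in the cancer control than in the normal control, with a median of -1.74, and 21 higher and 1 lower in the cancer exercise library than in the cancer control, with a median of 1.74. Cdh1, the epithelial cadherin, had 3917 reads in the normal control, 5171 in normal exercise, 972 in the cancer control and 3183 in cancer exercise, and the tight junction genes Cldn3 and Lsr were at -1.06 and -2.09 in the cancer control. Krt8 (-1.13), Krt18 (-0.90) and Krt19 (-1.47) lay above the median of that list in this comparison and Krt7 (-1.89) below it. Relative to the summed normalized count of the 24 genes, Krt8 went from 8.55% in the normal control to 11.1% in the cancer control and Krt18 from 7.84% to 11.9%, while Krt7 went from 30.4% to 23.4%. Krt19 was at 14.9% and 15.3%. Relative to the epithelial sum Krt8 and Krt18 were thus higher in the cancer control, Krt7 lower and Krt19 about level. Whether their remaining reads came from lung epithelium or from tumor cells was not tested.

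With exercise the picture differed. In the cancer exercise library Krt8 stood at 18.9% of the epithelial sum, Krt18 at 15.5% and Krt19 at 25.5%, against 9.03%, 7.90% and 11.9% in the normal exercise library. Krt7 was at 32.0% and 33.7%. The list itself was level between these libraries, with a median of 0.05 and 2 genes higher, among them the claudin gene Cldn4 (3.79). None of 13 club cell, 17 ciliated, 14 alveolar type 1 or 14 alveolar type 2 genes reached the log2 difference of any of these 3 keratins, the highest being 0.79 for the ciliated gene Ccdc40. In other lists some did, with 2 of 20 alveolar macrophage genes (Marco at 3.69 and Chil3 at 2.46) and 1 of 11 desmosome genes (Eppk1 at 1.44) at or above Krt8 and Krt19. Higher by 2-fold or more in this comparison were also 5 of 12 squamous, 5 of 9 mesenchymal, 4 of 11 other filament and 6 of 9 intestinal genes, against 14.9% of all genes. The medians of the club cell, ciliated and alveolar type 1 and 2 lists were -0.35, -0.16, -0.47 and -0.52. The ratio of a keratin to the list is within a library, so the scaling of libraries does not enter it.

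Most genes of the cell type lists were 2-fold or more lower in the cancer control than in the normal control. In that comparison 25.7% of all genes were lower and 20.6% higher. All 14 alveolar type 2 genes were lower (median -2.49), led in level by the surfactant genes Sftpc (-3.24), Sftpa1 (-2.59) and Sftpb (-2.12). All 17 ciliated genes were lower (median -1.79), as were 11 of 14 alveolar type 1 genes (median -1.78). The only alveolar type 1 gene higher by 2-fold or more was Akap5 (2.55). Of 13 club cell genes, a list of airway secretory genes, 8 were lower (median -1.36). The club cell gene Scgb1a1 was at -1.87, beside Krt7 at -1.89, but 4 genes of that list were higher, the secretory genes Bpifa1 (4.15), Scgb3a1 (2.51), Bpifb1 (2.35) and Muc5b (48 against 151 reads). Outside the epithelium, all 10 endothelial genes (median -3.42), 7 of 8 smooth muscle genes (median -2.30), 8 of 12 mesothelial genes (median -1.58) and 13 of 20 alveolar macrophage genes (median -1.60) were lower too. Mesothelium also makes simple keratins, and its gene Msln was higher, with 620 reads in the normal control, 488 in normal exercise, 2692 in the cancer control and 688 in cancer exercise. The other mesothelial genes of highest level, Igfbp5 (-1.50) and Gpm6a (-3.38), were lower. Of the 12 mesothelial genes 2 were 2-fold or more higher in the cancer control, Msln and Cpe (3.01). So were 2 of the 20 alveolar macrophage genes, Marco (4.27) and Fabp4 (1.56). The part of these cell types in the keratin levels was not tested.

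**Figure D4:**
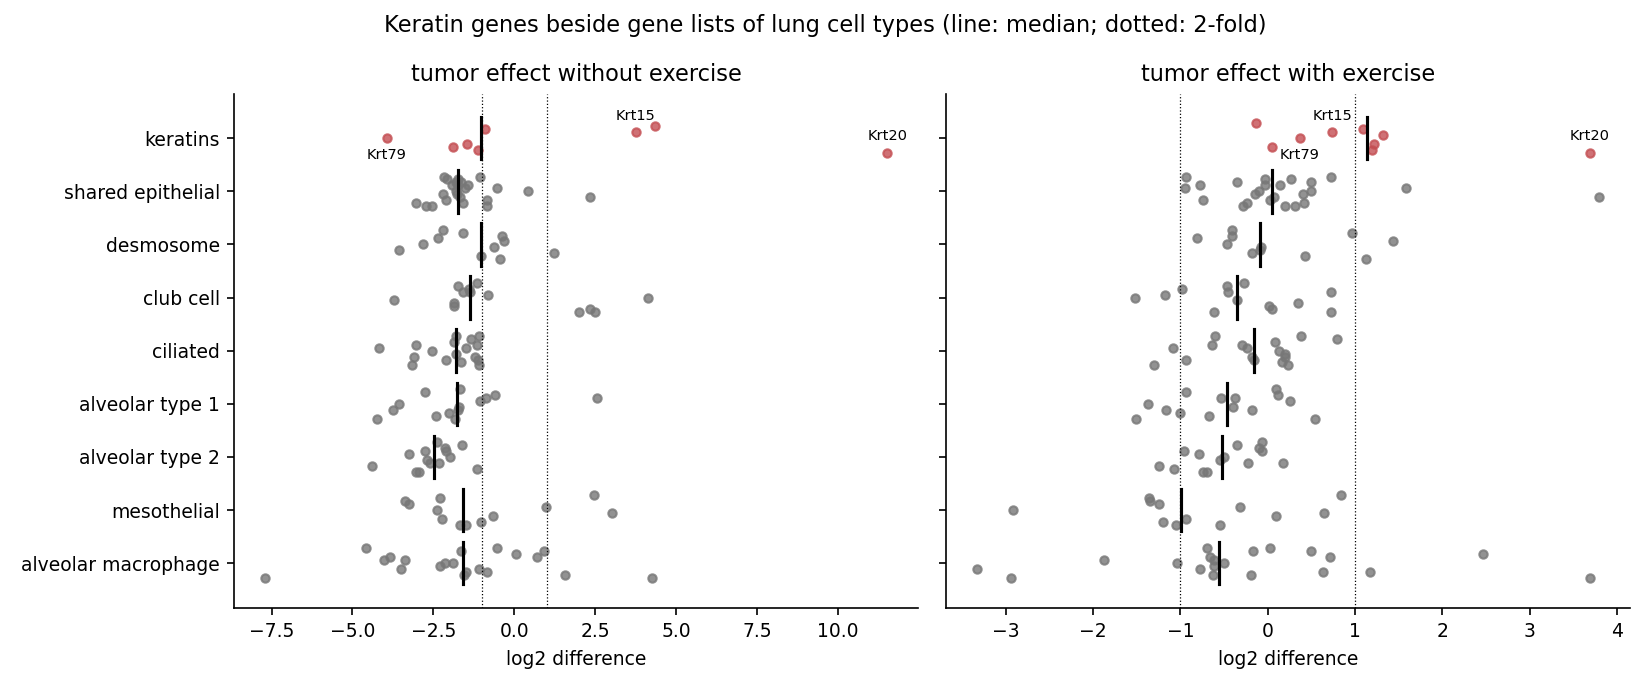
Log2 differences of the 10 keratins (red) and of genes from 8 lists (gray) in the tumor effect without and with exercise, 1 point per gene, with the list median as a black line and 2-fold as dotted lines. Genes with at most 3 reads in both libraries are left out as points and kept in the medians. The keratins spread from -3.94 to 11.53 without exercise, and from -0.13 to 3.69 with exercise.

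Genes of the junctions that anchor keratin filaments were mixed. Among all genes 20.6% were higher and 25.7% lower in the cancer control than in the normal control. Between the libraries with tumor 24.3% were higher with exercise and 17.7% lower, near the shares of the hemidesmosome genes below. Of 11 desmosome genes measured, 6 were lower and 1 higher in the cancer control than in the normal control (median -1.03), and 8 were higher and 1 lower in the cancer exercise library than in the cancer control (median 1.35). Jup, plakoglobin, was at -2.35 in the cancer control and Pkp4, plakophilin 4, at -0.37. Plec, plectin, which links keratins and vimentin to anchoring sites, was the 1 higher, with 2061 reads in the normal control, 1981 in normal exercise, 3768 in the cancer control and 1376 in cancer exercise. Among hemidesmosome genes 4 of 8 were lower (median -0.92) and Itgb4 was higher (2.57) in the cancer control, with 99, 91, 460 and 103 reads in the order of libraries used above. Between the libraries with tumor 2 of the 8 were higher with exercise and 1, Itgb4, lower (-2.06), with a median of 0.33 against 1.74 for the epithelial list, and Plec was lower as well (-1.36). The hemidesmosome genes with the highest levels were Cd151 (-1.24), Itga6 (-0.84) and Dst (-0.20).

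Other intermediate filament genes were mixed, and the vimentin gene was highest where the simple keratins were lowest, in the cancer control. Vim had 9599 reads in the normal control, 9079 in normal exercise, 59354 in the cancer control and 8644 in cancer exercise, with an interval of 2.96 to 3.03 for the log2 ratio of the cancer control to the normal control. Lmna, a nuclear lamin, was at 2.07 there, and Synm, the synemin of muscle cells, at -5.03. Of 11 such genes 6 were higher and 5 lower in the cancer control, with a median of 1.23, where 20.6% of all genes were higher and 25.7% lower. Of 9 factors and markers of mesenchymal cells 6 were higher and 0 lower (median 1.51). Vim and Krt20 were both highest in the cancer control, although Vim in the cancer exercise library was within 0.28 of the normal exercise library and Krt20 3.69 above it.

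Members were also placed among all genes by the likeness of their pattern, measured as the root mean square difference of the 4 log2 values after each gene's mean was taken off, over 11215 other genes whose normalized count averaged 50 or more. The 4 libraries are the only points behind it, so it is a description without a p. Krt7 was nearest to Scgb1a1, the club cell secretoglobin (0.018), then Csrp1 (0.033) and Cldn7 (0.042), and 22 genes lay within 0.1 of it. Scgb1a1 had 504276 reads in the normal control, 566791 in normal exercise, 106838 in the cancer control and 450635 in cancer exercise. The 2 genes thus kept their proportion in every library while differing widely in reads.

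Krt8 was nearest to Taf7 (0.022), Cd37 (0.065) and Pik3r6 (0.087), and Krt18 to A930013F10Rik (0.036), Tpd52 (0.043) and Gpsm3 (0.047). Seen from Krt8, Krt18 was at rank 25 (0.148), Krt19 at rank 30 (0.164) and Krt7 at rank 524 (0.487). Genes near to Krt19 were Epn3 (0.053) and Efnb2 (0.067). Cd37, Pik3r6 and Gpsm3 are genes of blood cells, so a like pattern over 4 libraries does not mark a shared cell type. Krt15 was nearest to Itgbl1 (0.056), Lhfpl4 (0.074) and Tnfrsf26 (0.081), and Krt79 to Ltb (0.096), Scel (0.140) and Hpgd (0.155). Krt20 had 0 genes within 0.1 or within 0.2, and its nearest were Gzmf (0.220), AA467197 (0.678) and 3110039M20Rik (0.808). Gzmf, a granzyme of cytotoxic lymphocytes, had 0 reads in the normal control, 37 in normal exercise, 1784 in the cancer control and 427 in cancer exercise.

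**Figure D5:**
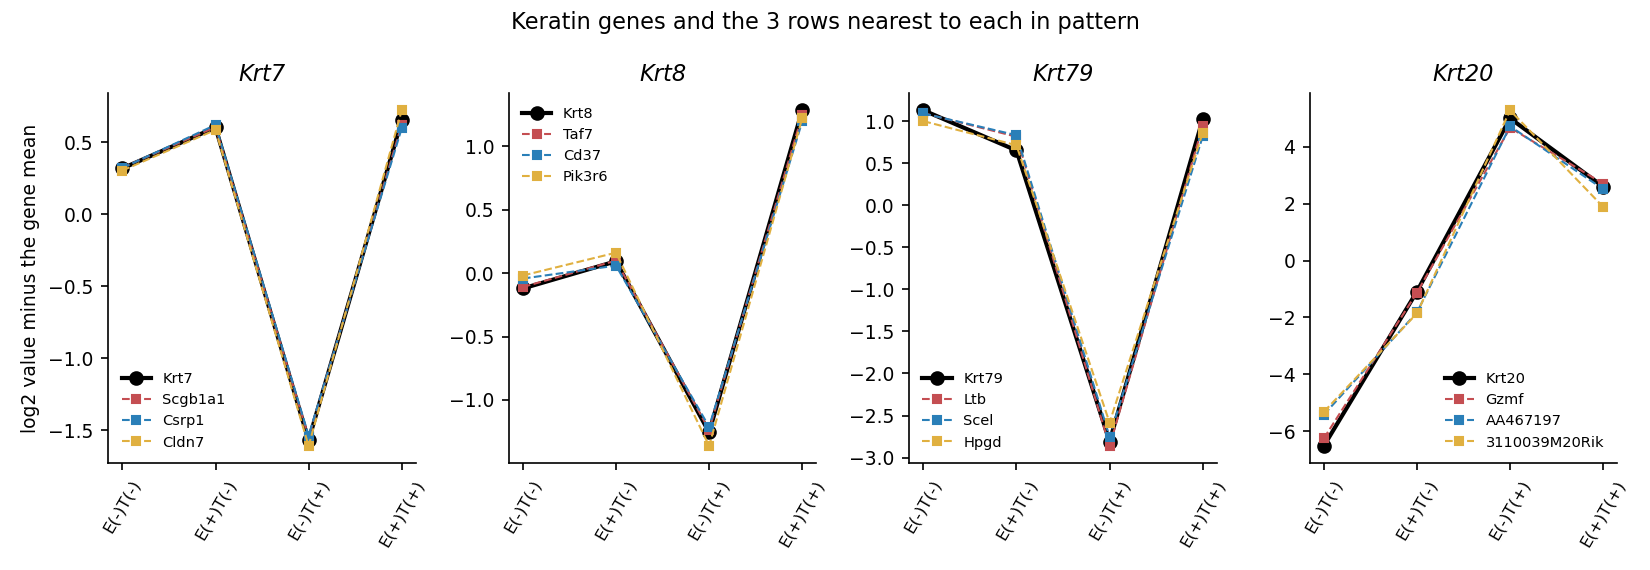
Log2 values minus each gene's own mean in the 4 libraries, for Krt7, Krt8, Krt79 and Krt20 (black) and the 3 genes nearest to each in pattern (colors). Lines join libraries for reading and do not mark an order. The nearest genes follow Krt7 within 0.018 to 0.042 and Krt20 within 0.220 to 0.808.

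Of the remaining keratins, 42 rows in all, 27 had 0 reads in each library and 12 more had at most 11 reads in any. Krt10, Krt23 and Krt85 passed the filter. Krt23, a type I keratin, had 481 reads in the normal control, 332 in normal exercise, 42 in the cancer control and 319 in cancer exercise, the same order of libraries as Krt79, with a log2 difference of -3.12 in the cancer control (-3.64 to -2.69) and 2.99 between the libraries with tumor (2.55 to 3.52). Krt10, known from the upper layers of skin, had 120, 111, 263 and 43 reads in the same order, and was 1.49 higher in the cancer control (1.18 to 1.82). Krt85 had 5 to 25 reads. Krt10 thus shared its highest library with Krt20, Krt5 and Krt15, and Krt23 its lowest with the simple keratins.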

How the data were processed

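Lung RNA of 4 groups of mice was sequenced as 1 QuantSeq 3' library each. Per the study's methods the authors aligned single-end reads with Bowtie2, counted them with bedtools and normalized with the quantile method of edgeR. The build named in the submitters' processing notes is mm10, and tool versions, annotation and use of strand are not given in the sources used here. The deposited files hold 23282 rows each (23238 symbols, 79 rows sharing one) with a log2 value that was found to be log2(normalized count + 1) at 3 decimals. Whole reads were recovered by inverting the negative binomial quantile adjustment in Python 3.11.15 (numpy 2.4.6, scipy 1.17.1, pandas 2.3.3), with a dispersion of 0.372 fitted on 1500 rows of at most 100 reads and then used for all rows. The adjustment of those reads gave 100.00% of the values within 0.001 and 99.66% equal at 3 decimals. The inversion and the calls were tested on simulated data.

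Differences are those of the deposited log2 values, so a fold is on the log2(count + 1) scale and understates low genes, while folds with an interval are ratios of reads scaled by effective size. Intervals and floors cover counting error only, since PCR copies carry no molecular identifier. A gene was called at 2-fold or more if its normalized count averaged 4 or more over the libraries (15164 rows). The 2-fold limit and the count of 4 are those of the study, and their use on the mean of the libraries is a choice made here. No fold is given where both libraries had 3 reads or fewer. With 1 library per group there is no test between groups. Alternatives were pseudocounts of 4 and 0.25, 3 other scalings, a 4-fold limit, other count limits and removal of a share of E(-)T(+) from E(+)T(-).

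Named were all 10 members, the 3 nearest genes in pattern of each member whose normalized count averaged 50 or more, the 3 genes of highest level in each list, and other keratins past 2-fold at that level. Genes that small counts single out were named after their values were seen. Some genes that fall under this rule are not reported here. The members and gene lists were chosen with earlier results of these data known. Positions are from GENCODE M21 and start regions from RefSeq, which held 7 of the 10 members.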

Additional observations from a re-analysis of the deposited data

Results flagged for a closer look

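Krt20 differed in opposite directions in the 2 exercise comparisons, by 5.43 on the log2 scale in E(+)T(-) over E(-)T(-) and by -2.41 in E(+)T(+) over E(-)T(+). Both rest on single libraries, the first on 46 against 0 reads, and the difference between them was not tested. The 46 reads equal 1.43% of the E(-)T(+) level, less than the median of 1.60% over the 8 other genes that had 0 reads in E(-)T(-) and 500 or more normalized counts in E(-)T(+), so that subtracting this median leaves 0.00 by construction.

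Krt8 and Krt19 did so in the 2 tumor comparisons. Krt8 was at -1.13 in E(-)T(+) over E(-)T(-) and at 1.19 in E(+)T(+) over E(+)T(-), and Krt19 at -1.47 and 1.22. With library totals the second values were 0.78 and 0.81, inside the 2-fold limit. These differences were not tested either.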

How the results depend on the processing

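Of 220 recomputed differences of single keratins, 211 stayed on their side of the 2-fold limit and 9 no longer passed it. None of those past the limit changed sign, and 3 inside it did, all in the tumor effect with exercise: Krt7 from 0.05 to -0.36 with library totals and to -0.04 with totals without hemoglobin genes, and Krt79 from 0.37 to -0.04 with library totals. With library totals, which move the median of all genes to -0.41 in the tumor effect with exercise and -0.59 in the exercise effect with tumor, 1 keratin in place of 6 (5 when Krt5, at 1 against 0 reads, is set aside) was called higher in the tumor effect with exercise. Krt8 was then at 0.78, Krt18 at 0.68, Krt19 at 0.81 and Krt80 at 0.93. Totals without hemoglobin genes kept these calls at 6. Krt20 in the exercise effect without tumor went to 0.00 after a share of E(-)T(+) larger than its own was taken out, and in the tumor effect with exercise it went from 3.69 to 9.12 against that 0. With a pseudocount of 4, Krt14 (0.89) in the exercise effect without tumor no longer passed, nor did the 2 pairs with 3 reads or fewer in both libraries, Krt80 in the tumor effect without exercise and Krt5 in the tumor effect with exercise. At a 4-fold limit the share of all genes called was 2.7% in the exercise effect without tumor, 21.4% in the tumor effect without exercise, 16.4% in the exercise effect with tumor and 8.6% in the tumor effect with exercise. At the 2-fold limit, among genes averaging 50 or more normalized counts, the share in the exercise effect without tumor was 2.9% in place of 10.0%. The other comparisons were then at 40.6% (tumor effect without exercise), 36.2% (exercise effect with tumor) and 20.1% (tumor effect with exercise). The fewer genes called at the 4-fold limit follow from the stricter limit. Why the shares fell at the higher count limit was not tested. Depth limits Krt5, Krt14 and Krt80, each with at most 29 reads. No paired analysis was possible because each group has 1 library and the labels give no replicate numbers.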
